A study of Mus musculus with 48 samples.

Results

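Autophagy delivers cell contents to the lysosome inside a double membrane, and mitophagy is the form that removes mitochondria. The data here are the gastrocnemius transcript levels of 40 mouse genes of this machinery, chosen by name from the 54532 genes of a deposited count table and grouped by the step they serve. The study asked what PFOS, perfluorooctane sulfonate, a persistent fluorinated surfactant, does to the metabolism of mitochondria in skeletal muscle. RNA-seq libraries were made from 48 mice, 1 per mouse. The groups, each with 4 mice unless stated, were females of the hCYP2B6-Tg and of the Cyp2b-null genotype and males of both, gavaged daily for 21 days with 0, 1 or 10 mg/kg PFOS; the hCYP2B6-Tg males at 0 mg/kg/day were 5, and the Cyp2b-null males given 10 mg/kg/day were 3. In all, 17 mice received 0, 16 received 1 and 15 received 10 mg/kg/day. hCYP2B6-Tg denotes a transgene of the human drug-metabolising gene CYP2B6 and Cyp2b-null the loss of mouse Cyp2b genes; the labels used here do not give the promoter of the transgene, whether the transgenic mice also lack the mouse genes, the age of the mice or the vehicle. Genotype and sex together are called the 4 strata.

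The machinery works in order. A kinase complex around ULK1 or ULK2, held back by mTORC1 and switched on by energy shortage, starts the process, and a phosphoinositide 3-kinase complex around Beclin 1 and VPS34 then marks the membrane. WIPI proteins read that mark, while ATG9A and ATG2 supply lipid to the growing membrane. Next, 2 linked ubiquitin-like conjugation reactions attach ATG8 proteins, the LC3 and GABARAP families, to the membrane lipid. Cargo receptors such as p62 bind both cargo and ATG8, and mitophagy receptors such as BNIP3 and FUNDC1 do so from the mitochondrial surface. In skeletal muscle this pathway is known for protein and mitochondrial turnover during fasting and wasting, and forkhead transcription factors of the FOXO family are known to act on several of its genes in mouse muscle. Counts of transcripts do not measure how much material is degraded.

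Total counts per library were 11571142 to 19921061. The libraries were of muscle: Myh4, the fast myosin heavy chain of this muscle, had a median of 67370 CPM (counts per 1e+06 counts of the TMM-scaled library) without PFOS, and Alb, the liver's albumin gene, had at most 224 counts in 47 libraries and 27859 in 1 Cyp2b-null male at 1 mg/kg/day. The labels' extraction text names liver, while their tissue field names gastrocnemius. In 6 libraries, 4 of them at 10 mg/kg/day, either Alb was at that high count or Glycam1, a lymph node gene, had 41 to 790 counts. Within every stratum the library numbers rose with dose, so that handling and dose cannot be told apart. Adipocyte markers moved with 10 mg/kg/day, the high dose: 10 of 12 were higher, and their summed level was 128.1 to 2169.8 CPM at 10 mg/kg/day, against 119.5 to 485 CPM at 0 mg/kg/day. All 8 lymph node markers were higher, with summed levels of 0.414 to 146.5 CPM at 10 mg/kg/day and 0.161 to 80.2 CPM at 0 mg/kg/day, and so were 4 of 8 macrophage markers. Of the fast fibre markers 2 of 8 were higher and 4 lower, of the fibroblast markers 2 of 6 were higher and 4 lower, and 0 of the 3 liver markers tested were called. Their part in the results below was not tested, apart from fits that took the adipocyte markers as a covariate or left out the 6 libraries.

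At 10 mg/kg/day most of the autophagy genes changed. Those that rose included 4 of 5 genes for ATG8 proteins, all 4 for cargo receptors and 3 of 5 for mitophagy proteins, Bnip3 the most. Those that fell included 6 of 10 conjugation genes, the kinase gene Ulk2 and the mitophagy receptor Fundc1. Averaged over the strata, 20 of the 40 genes were higher and 10 were lower than at 0 mg/kg/day (edgeR quasi-likelihood test, Benjamini-Hochberg adjusted p under 0.05 over the 15583 genes tested). All 40 passed the filter on low counts. The dose moved much of the transcriptome: 47.5% of all genes tested passed, 25% higher and 22.5% lower. The median log2 fold change was 0.18 over the 40 genes and 0.04 over all genes tested. The other genes called higher were 3 of 6 genes of the phosphoinositide kinase complex, 3 of 5 lipid transfer and phosphoinositide binding genes, 2 of 10 conjugation genes and 1 of 5 initiation genes. The genes called lower were 6 of 10 conjugation genes, 2 of 5 initiation genes and 2 of 5 mitophagy genes. In bulk muscle, fewer cells of a type and less RNA per cell cannot be told apart.

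How the libraries are scaled sets the baseline of these counts. When totals were used with no scaling factor, the median log2 fold change of all genes moved up by 0.22, 29 of the 40 genes were higher and 4 lower, and over all genes 7520 were higher (48.3%) and 1642 lower (10.5%), where the scaled libraries gave 3892 higher and 3511 lower. Without the 6 libraries with liver or lymph node transcripts 21 genes were higher and 7 lower, where 21.2% of all genes were higher and 18.1% lower. With the adipocyte markers as a covariate 21 were higher and 6 lower, where 18% of all genes were higher and 17.1% lower.

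**Figure D1:**
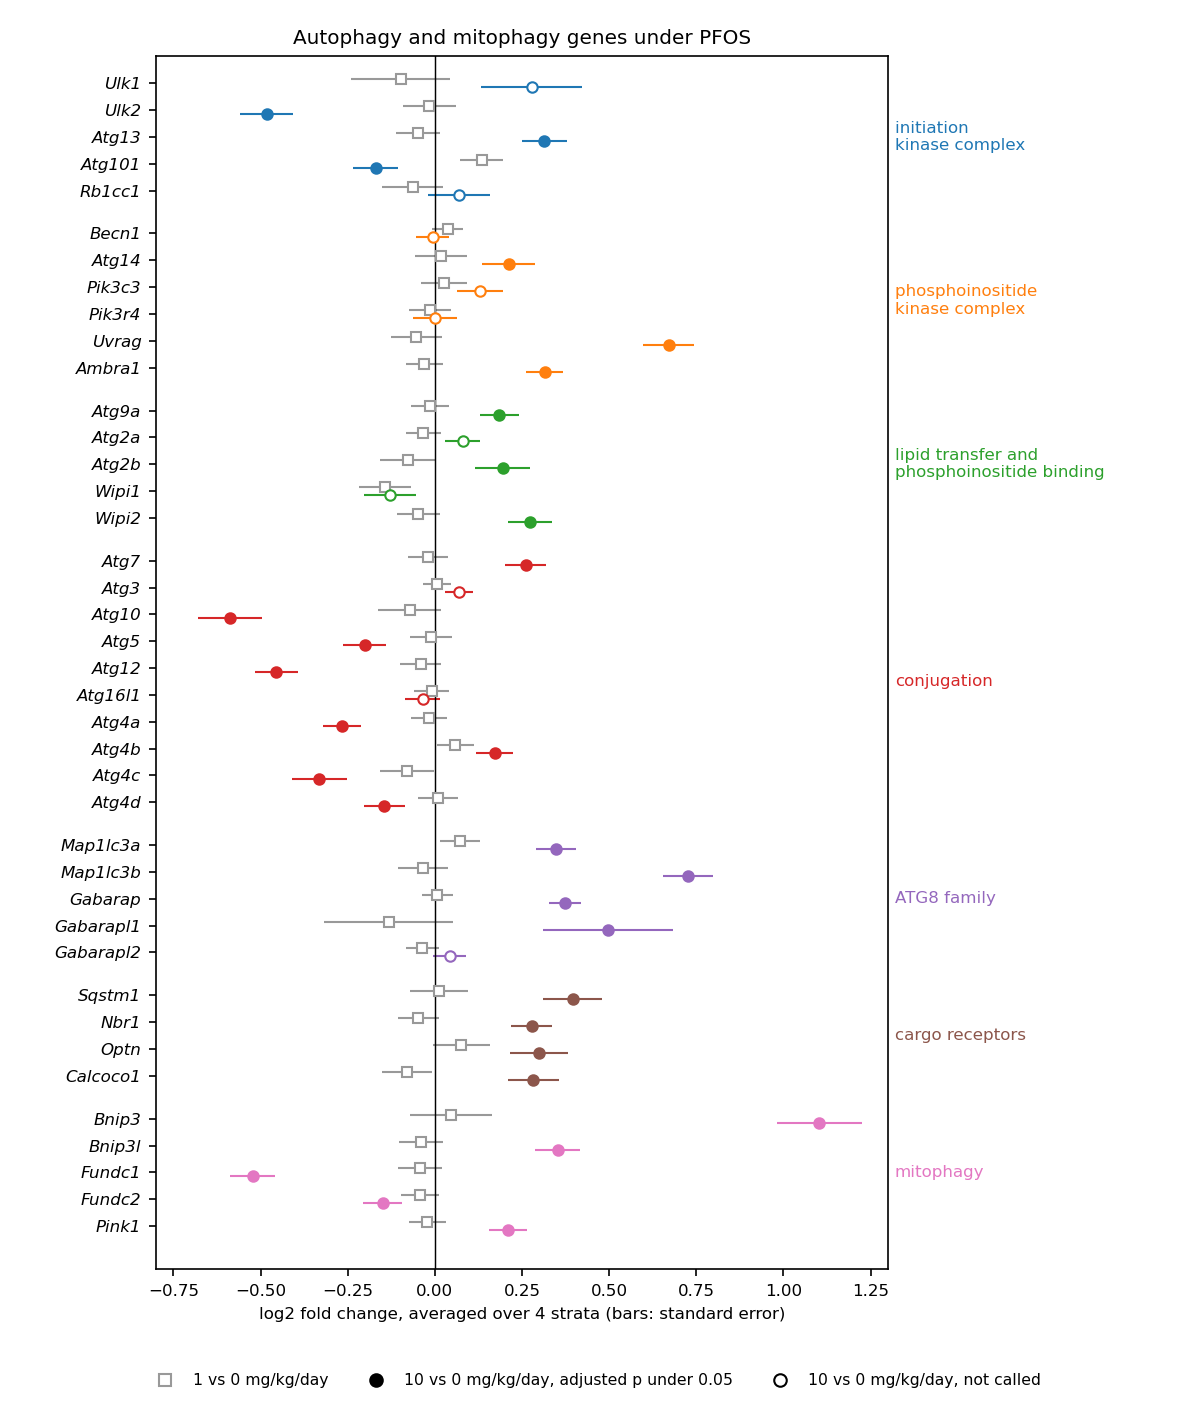
Log2 fold change of the 40 genes at 1 mg/kg/day (grey squares) and 10 mg/kg/day (circles) against 0 mg/kg/day, averaged over the 4 strata, with the standard error as bars and genes grouped by step. Filled circles had an adjusted p under 0.05; Bnip3 lay farthest to the right at 1.10 and Atg10 farthest to the left at -0.59, and no gene was called at 1 mg/kg/day.

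Promoters of 3 genes that carry an E-box, and of 2 genes that moved in opposite directions with no match, are given to show what sequence they share. The E-box CACGTG, which reads the same on both strands and is bound by factors of the TFEB and USF families, and the forkhead motif GTAAACA, or TGTTTAC on the other strand, were searched in the 250 bases before each transcript start. RefSeq windows (GRCm38.p6) were matched for 33 of the 40 genes, 36 windows in all. These are the windows of RefSeq's transcript starts: 28 of the starts lay within 250 bases of the 5′ end of the gene in the count table, and the other 8 lay farther off, among them Fundc1 (318 bases inside the gene) and Atg7 (27999 bases inside). An E-box lay in 4 of the 36 windows (11.1%), against 6.02% of all 32851 promoters, and the forkhead motif in 0, against 3.17% of all promoters. The genes were Bnip3, Atg5, Atg3 and, at that internal start, Atg7, and at 10 mg/kg/day Bnip3 and Atg7 were higher, Atg5 was lower and Atg3 was not called, so these letters did not go with 1 direction. Capitals mark the E-box, and Map1lc3b and Ulk2 are shown as the gene with the smallest p of the 40 and the kinase gene that fell, neither with a match. The 5 starts shown lay within 250 bases of the counted gene's 5′ end. The windows, each 5′ to 3′ on the gene's own strand, lie at chr7:138909507-138909756 (minus strand) for Bnip3, chr10:44268089-44268338 (plus) for Atg5, chr16:45158579-45158828 (plus) for Atg3, chr8:121590188-121590437 (plus) for Map1lc3b and chr11:61855093-61855342 (minus) for Ulk2.
Bnip3: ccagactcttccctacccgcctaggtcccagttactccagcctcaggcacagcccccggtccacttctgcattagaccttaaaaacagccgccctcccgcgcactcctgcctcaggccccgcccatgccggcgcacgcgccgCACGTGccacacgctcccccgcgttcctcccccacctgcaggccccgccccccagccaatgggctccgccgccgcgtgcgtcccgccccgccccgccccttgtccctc
Atg5: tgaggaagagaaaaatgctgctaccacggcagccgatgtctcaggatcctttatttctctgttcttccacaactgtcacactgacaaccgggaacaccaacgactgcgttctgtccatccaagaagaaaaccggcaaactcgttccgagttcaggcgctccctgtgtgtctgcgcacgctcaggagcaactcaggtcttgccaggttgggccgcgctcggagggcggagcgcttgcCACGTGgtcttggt
Atg3: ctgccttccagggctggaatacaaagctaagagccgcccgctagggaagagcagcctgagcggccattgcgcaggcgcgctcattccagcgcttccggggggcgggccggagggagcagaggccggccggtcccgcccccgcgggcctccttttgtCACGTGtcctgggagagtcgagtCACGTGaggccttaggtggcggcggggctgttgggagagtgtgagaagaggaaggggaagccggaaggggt
Map1lc3b: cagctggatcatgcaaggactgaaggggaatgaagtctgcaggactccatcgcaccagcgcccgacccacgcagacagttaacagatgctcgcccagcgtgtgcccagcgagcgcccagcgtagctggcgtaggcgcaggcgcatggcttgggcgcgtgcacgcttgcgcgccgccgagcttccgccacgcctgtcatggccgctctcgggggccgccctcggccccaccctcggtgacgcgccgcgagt
Ulk2: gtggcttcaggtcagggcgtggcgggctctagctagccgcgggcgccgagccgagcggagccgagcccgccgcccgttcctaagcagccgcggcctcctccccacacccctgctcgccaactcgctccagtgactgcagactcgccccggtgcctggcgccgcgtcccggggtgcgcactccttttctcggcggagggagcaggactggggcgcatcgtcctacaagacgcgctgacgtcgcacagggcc

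Of the initiation kinase complex, Ulk2 and Atg101 fell and Atg13 rose, while both other members were not called. Ulk2, which encodes a starting kinase, had 159.9 to 225 CPM (median 180.9) at 0, 160.4 to 211 CPM (median 183.7) at 1 and 90.1 to 180.5 CPM (median 138.9) at 10 mg/kg/day. Of the 15 mice at 10 mg/kg/day, 12 lay below every mouse without PFOS, and the ranges overlapped for the others. The decrease was -0.48 ± 0.08 on the log2 scale (SE; edgeR adjusted p = 1.95e-06). Atg13, the adaptor that joins the kinase to its partners, had 42.0 to 66.3 CPM (median 49.6) at 0, 41.8 to 54.8 CPM (median 48.2) at 1 and 46.6 to 103.4 CPM (median 57.8) at 10 mg/kg/day, with a log2 fold change of 0.31 ± 0.07 (edgeR adjusted p = 0.000115). Here 4 of the 15 mice at the high dose exceeded every untreated mouse. Atg101, the partner that stabilises ATG13, had 20.5 to 31.96 CPM (median 25.7) at 0, 21.5 to 37.2 CPM (median 29.1) at 1 and 17.4 to 27.5 CPM (median 22.8) at 10 mg/kg/day. The Atg101 ranges overlapped widely, with 3 of 15 mice below all untreated ones. Its log2 fold change was small, -0.17 ± 0.06 (edgeR adjusted p = 0.0277), became 0.05 on library totals without scaling factors, and lost the call in 8 of 42 alternative settings, 3 of them the omission of a single mouse (hCYP2B6-Tg male replicate 3 at 10, or Cyp2b-null male replicate 2 or 4 at 0 mg/kg/day). Rb1cc1, the scaffold FIP200, had a log2 fold change of 0.07 ± 0.09 and was not called.

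Ulk1 was not called on average, 0.28 ± 0.14 (edgeR adjusted p = 0.111), and it was singled out after its values were seen, for its spread at 10 mg/kg/day. Its 17 mice without PFOS lay within 98.3 to 139.5 CPM (median 122.4) and its 16 mice at 1 mg/kg/day within 89.9 to 141.8 CPM (median 108.3). At 10 mg/kg/day the Cyp2b-null males had 194.9, 189.96 and 210.4 CPM, all above the 122.4, 120.6, 128.7 and 111.2 CPM of their untreated counterparts. The Cyp2b-null females at 10 mg/kg/day had 56.1, 88.6, 45.9 and 126.6 CPM, against 108.2, 110.1, 103.2 and 123.3 CPM in untreated females, so that 3 of 4 lay below and 1 above. The hCYP2B6-Tg females had 148.3, 538, 150.9 and 96.5 CPM, against 98.3, 139.2, 127.2 and 116.3 CPM without PFOS, with 1 mouse far above all others. In hCYP2B6-Tg females Ulk1 was called at 0.96 (edgeR adjusted p = 0.0115), a value that was 0.13 ± 0.21 without the mouse far above. The log2 fold changes were 0.72 in Cyp2b-null males and -0.49 in Cyp2b-null females, neither of which passed (edgeR adjusted p = 0.111 and 0.275).

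In the phosphoinositide kinase complex 3 regulatory partners rose, while the catalytic core was not called. Uvrag, a Beclin 1 partner known for endosome and lysosome traffic, had 8.23 to 14.3 CPM (median 11.4) at 0, 8.48 to 13.98 CPM (median 10.4) at 1 and 9.58 to 23.3 CPM (median 18.8) at 10 mg/kg/day. Its increase of 0.67 ± 0.07 (fold 1.59; edgeR adjusted p = 9.55e-10) ranked second by p among the 40 genes, and 13 of 15 mice at 10 mg/kg/day exceeded every untreated mouse. Ambra1, a scaffold that binds Beclin 1, had 25.4 to 33.6 CPM (median 28.8) at 0, 23.4 to 34.0 CPM (median 28.6) at 1 and 27.3 to 50.01 CPM (median 35.0) at 10 mg/kg/day, an increase of 0.32 ± 0.05 (edgeR adjusted p = 6.41e-06), with 10 of 15 high-dose mice above every untreated mouse. Atg14, the subunit that directs the kinase to autophagosome sites, had 8.85 to 12.3 CPM (median 10.3) at 0, 8.71 to 12.9 CPM (median 10.6) at 1 and 8.403 to 23.8 CPM (median 11.6) at 10 mg/kg/day. For Atg14 6 of 15 high-dose mice stood above all untreated ones. Its increase of 0.21 ± 0.08 (edgeR adjusted p = 0.0191) lost the call without replicate 2 of the high-dose hCYP2B6-Tg females, when it was 0.13 ± 0.06 (edgeR adjusted p = 0.0504). The core members were not called: the log2 fold change was 0.13 ± 0.07 for Pik3c3, the lipid kinase VPS34, 0.00 ± 0.06 for Pik3r4, its VPS15 subunit, and -0.01 ± 0.05 for Becn1, Beclin 1, which became 0.21 on library totals without scaling factors (edgeR adjusted p = 1.73e-05).

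Among genes that place and feed the membrane, Wipi2, Atg9a and Atg2b rose and Wipi1 and Atg2a were not called. Wipi2, the phosphoinositide reader that recruits ATG16L1, had 41.0 to 55.5 CPM (median 48.8) at 0, 40.6 to 52.3 CPM (median 46.7) at 1 and 43.9 to 108.2 CPM (median 56.3) at 10 mg/kg/day, an increase of 0.27 ± 0.06 (edgeR adjusted p = 0.000414). Atg9a, the lipid scramblase carried by seed vesicles, had 79.1 to 134.3 CPM (median 118.2) at 0, 78.3 to 141.8 CPM (median 113.99) at 1 and 99.0 to 152.8 CPM (median 131.1) at 10 mg/kg/day, an increase of 0.18 ± 0.06 (edgeR adjusted p = 0.00614). Of the 15 high-dose mice, 8 exceeded all untreated mice in Wipi2 and 5 in Atg9a, so the ranges overlapped in both. With the adipocyte markers as a covariate Atg9a was no longer called (0.15; edgeR adjusted p = 0.0747). Atg2b, a lipid transfer protein, had 25.1 to 38.6 CPM (median 30.6) at 0, 25.6 to 34.5 CPM (median 28.9) at 1 and 24.4 to 71.8 CPM (median 32.5) at 10 mg/kg/day. All but 4 of the 15 high-dose mice lay within or below the untreated range. Its increase of 0.19 ± 0.08 (edgeR adjusted p = 0.0402) stood close to the threshold, was 0.11 ± 0.06 without replicate 2 of the high-dose hCYP2B6-Tg females and lost the call in 19 of 42 alternative settings. The log2 fold changes of the uncalled genes were 0.08 ± 0.05 for Atg2a and -0.13 ± 0.08 for Wipi1, the paralogue of Wipi2, whose value became 0.08 on library totals without scaling factors. Without replicate 2 of the high-dose hCYP2B6-Tg females Wipi1 was called lower, at -0.21 ± 0.06 (edgeR adjusted p = 0.00229).

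The conjugation genes moved apart: 6 of 10 fell, 2 rose and 2 were not called, with a median log2 fold change of -0.17. Atg12, the ubiquitin-like protein that is joined to ATG5, had 27.5 to 38.9 CPM (median 32.6) at 0, 27.7 to 35.8 CPM (median 32.3) at 1 and 18.3 to 31.2 CPM (median 23.6) at 10 mg/kg/day. It fell by 0.45 ± 0.06 on the log2 scale (edgeR adjusted p = 6.42e-08). Of the 15 mice at 10 mg/kg/day 13 lay below every untreated mouse, and the highest of the 15 was replicate 2 of the high-dose hCYP2B6-Tg females. Atg10, the E2-like enzyme that passes ATG12 on, had 6.39 to 12.3 CPM (median 8.02) at 0, 6.48 to 10.3 CPM (median 7.91) at 1 and 3.44 to 8.68 CPM (median 5.68) at 10 mg/kg/day, a decrease of -0.59 ± 0.09 and the lowest fold change of the 40 genes (edgeR adjusted p = 1.52e-06). For Atg10 9 of 15 high-dose mice lay below every untreated one. Atg4a, 1 of the 4 proteases that trim ATG8 proteins, had 22.8 to 39.7 CPM (median 31.6) at 0, 25.5 to 41.9 CPM (median 30.2) at 1 and 22.4 to 31.95 CPM (median 25.9) at 10 mg/kg/day, a change of -0.27 ± 0.05 (edgeR adjusted p = 7.52e-05) that was -0.04 and not called on library totals without scaling factors. In all 1 of 15 high-dose mice lay below all untreated mice in Atg4a.

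The other conjugation genes lay on both sides of 0. Atg4c was lower at -0.33 ± 0.08 and Atg5, the partner of ATG12, at -0.20 ± 0.06; on library totals without scaling factors Atg4c lost the call and Atg5 became 0.02. With the adipocyte markers as a covariate Atg5 was no longer called (-0.16; edgeR adjusted p = 0.0921). Atg4d was at -0.15 ± 0.06, a value that became 0.08 on unscaled totals and lost the call in 19 of 42 alternative settings. Atg7, the E1-like enzyme that activates both ATG12 and ATG8 proteins, rose by 0.26 ± 0.06 and the protease gene Atg4b by 0.17 ± 0.05. Neither Atg3, the E2-like enzyme of the ATG8 branch, nor Atg16l1, which places the conjugate at the membrane, was called, at 0.07 ± 0.04 and -0.03 ± 0.05; the second value became 0.18 on unscaled totals (edgeR adjusted p = 0.00232).

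Of the 5 ATG8 genes 4 rose. Map1lc3b, which encodes LC3B, the usual marker protein of autophagosomes, had 173.2 to 251 CPM (median 193.6) at 0, 162.1 to 232 CPM (median 192.7) at 1 and 243 to 594 CPM (median 313) at 10 mg/kg/day. Its increase of 0.73 ± 0.07 (fold 1.65) had the smallest p of the 40 genes (edgeR adjusted p = 1.54e-10), and 14 of the 15 mice at 10 mg/kg/day exceeded every untreated mouse. Gabarap, the founding member of the other ATG8 branch, had 92.0 to 125.1 CPM (median 104.1) at 0, 95.8 to 113.4 CPM (median 106.2) at 1 and 111.4 to 167.1 CPM (median 132.8) at 10 mg/kg/day, an increase of 0.37 ± 0.05 (edgeR adjusted p = 1.18e-08). Map1lc3a, the LC3A gene, had 98.0 to 136.7 CPM (median 123.2) at 0, 96.1 to 148.9 CPM (median 123.1) at 1 and 117.4 to 190.96 CPM (median 147.6) at 10 mg/kg/day, an increase of 0.35 ± 0.06 (edgeR adjusted p = 5.2e-06). Of the 15 high-dose mice, 11 exceeded all untreated mice in Gabarap and 12 in Map1lc3a. Gabarapl2 was not called, at 0.04 ± 0.05.

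Gabarapl1 was the most variable of the ATG8 genes and was singled out after its values were seen. It had 25.1 to 91.3 CPM (median 37.8) at 0, 28.5 to 63.6 CPM (median 36.0) at 1 and 26.4 to 284 CPM (median 54.0) at 10 mg/kg/day. The ranges overlapped, with 1 high-dose mouse above all untreated ones. Its increase of 0.50 ± 0.19 (edgeR adjusted p = 0.0267) was 0.22 ± 0.14 without replicate 2 of the high-dose hCYP2B6-Tg females (edgeR adjusted p = 0.182), and it also lost the call without hCYP2B6-Tg male replicate 4 at that dose. In Cyp2b-null females the values were 34.3, 28.5, 26.4 and 31.5 CPM at 10 mg/kg/day, against 31.2, 34.8, 25.1 and 56.6 CPM at 0 mg/kg/day, a log2 fold change of -0.29.

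All 4 cargo receptor genes rose. Nbr1, whose protein brings ubiquitinated cargo to ATG8, had 98.6 to 128.02 CPM (median 118.6) at 0, 96.7 to 129.9 CPM (median 116.6) at 1 and 118.2 to 248 CPM (median 136.6) at 10 mg/kg/day, an increase of 0.28 ± 0.06 (edgeR adjusted p = 0.000165). Sqstm1, which encodes p62, had 496 to 733 CPM (median 612) at 0, 515 to 715 CPM (median 606) at 1 and 448 to 1641 CPM (median 812) at 10 mg/kg/day, an increase of 0.40 ± 0.08 (edgeR adjusted p = 0.000171). Calcoco1, a receptor for parts of the endoplasmic reticulum, had 110.7 to 144.7 CPM (median 128.6) at 0, 101.2 to 140.4 CPM (median 121.1) at 1 and 93.3 to 319 CPM (median 146.5) at 10 mg/kg/day, an increase of 0.28 ± 0.07 (edgeR adjusted p = 0.00158). Of the 15 high-dose mice, 9 exceeded all untreated mice in Nbr1, 9 in Sqstm1 and 8 in Calcoco1. For all 3 the highest mouse at 10 mg/kg/day was replicate 2 of the high-dose hCYP2B6-Tg females, and the calls were kept without it. Optn, optineurin, rose by 0.30 ± 0.08. Sqstm1 was called in hCYP2B6-Tg females and Cyp2b-null males but not in the other two strata. Cyp2b-null males had 1001, 1014 and 1087 CPM of Sqstm1 at 10 mg/kg/day, against 612, 667, 589 and 679 CPM at 0, without overlap. Cyp2b-null females had 541, 448, 531 and 484 CPM at 10 mg/kg/day, against 525.8, 496, 618 and 522 CPM at 0, with overlap; the difference between these 2 strata was not tested.

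The mitophagy genes included the largest increase of the 40, Bnip3, and a decrease, Fundc1. Mitochondrially encoded transcripts made up 8.65 to 12.99% of counts at 0, 7.95 to 12.08% at 1 and 5.53 to 9.78% at 10 mg/kg/day. These are shares of all counts in a library, and their difference and its bearing on mitophagy were not tested. Bnip3, an outer mitochondrial membrane receptor known to be induced by low oxygen and by FOXO3 in wasting mouse muscle, had 97.0 to 199.7 CPM (median 135.3) at 0, 97.3 to 162.8 CPM (median 137.7) at 1 and 130.6 to 673 CPM (median 275) at 10 mg/kg/day. In 12 of 15 high-dose mice it exceeded every untreated mouse. The log2 fold change was 1.10 ± 0.12, a fold of 2.15 (edgeR adjusted p = 1.12e-09). Bnip3l, its paralogue NIX, had 58.3 to 79.0 CPM (median 70.5) at 0, 51.1 to 79.8 CPM (median 69.4) at 1 and 72.4 to 153.2 CPM (median 83.6) at 10 mg/kg/day, an increase of 0.35 ± 0.06 (edgeR adjusted p = 1.98e-05). In Bnip3l 11 of the 15 mice stood above all untreated ones. Fundc1, a receptor of the same membrane whose protein acts in mitophagy under low oxygen, went the other way, with 24.5 to 40.4 CPM (median 31.9) at 0, 25.1 to 40.4 CPM (median 32.5) at 1 and 16.6 to 31.6 CPM (median 23.2) at 10 mg/kg/day. It fell by 0.52 ± 0.06 on the log2 scale (edgeR adjusted p = 1.41e-08), and 12 of 15 high-dose mice lay below all untreated mice. Pink1, the kinase that marks damaged mitochondria for Parkin, rose by 0.21 ± 0.05. Fundc2 was at -0.15 ± 0.06, a value that lost the call without replicate 3 of the high-dose Cyp2b-null males and became 0.06 on library totals without scaling factors.

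With all groups in the fit, Bnip3 was the only 1 of the 40 genes called in each of the 4 strata. How many of all genes tested were called in each of the 4 was not counted. Its call in Cyp2b-null females was lost in 4 of 18 alternative settings: with only the groups compared in the fit (0.92; edgeR adjusted p = 0.0975), without replicate 1 (0.69; 0.0754) or replicate 3 (0.80; 0.0550) at 10 mg/kg/day, and without the 6 libraries (0.81; 0.0560). The calls in the other 3 strata were kept in every setting run. The hCYP2B6-Tg females had 226, 673, 275 and 187.8 CPM at 10 mg/kg/day, against 114.2, 137.6, 125.5 and 109.1 CPM at 0. The hCYP2B6-Tg males had 253, 275, 299 and 259 CPM at 10 mg/kg/day, against 164.9, 136.4, 135.3, 145.99 and 128.7 CPM at 0. In these groups and in Cyp2b-null males, with 319, 323 and 344 CPM against 130.7, 137.8, 199.7 and 163.8 CPM, every treated mouse exceeded every untreated one. The Cyp2b-null females split, with 316, 130.6, 274 and 144.03 CPM at 10 mg/kg/day against 102.03, 97.0, 107.1 and 145.7 CPM at 0, so that replicates 1 and 3 were high and replicates 2 and 4 lay within the untreated range. The log2 fold changes were 1.49 ± 0.24 in hCYP2B6-Tg females, 0.94 ± 0.24 in Cyp2b-null females, 0.93 ± 0.23 for hCYP2B6-Tg males and 1.06 ± 0.26 for Cyp2b-null males. Replicate 3 of the Cyp2b-null females at 10 mg/kg/day was among the 6 libraries with liver or lymph node transcripts. Replicates 1 and 3 of that group had scaling factors of 1.26 and 1.33 and summed adipocyte markers of 2170 and 1472 CPM. Replicates 2 and 4 had factors of 1.09 and 0.995 and adipocyte markers of 514 and 238 CPM. Summed fast fibre markers were 90914 and 93675 CPM in replicates 1 and 3, and 152664 and 160156 CPM in replicates 2 and 4. Whether the Bnip3 split goes with these values was not tested.

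**Figure D2:**
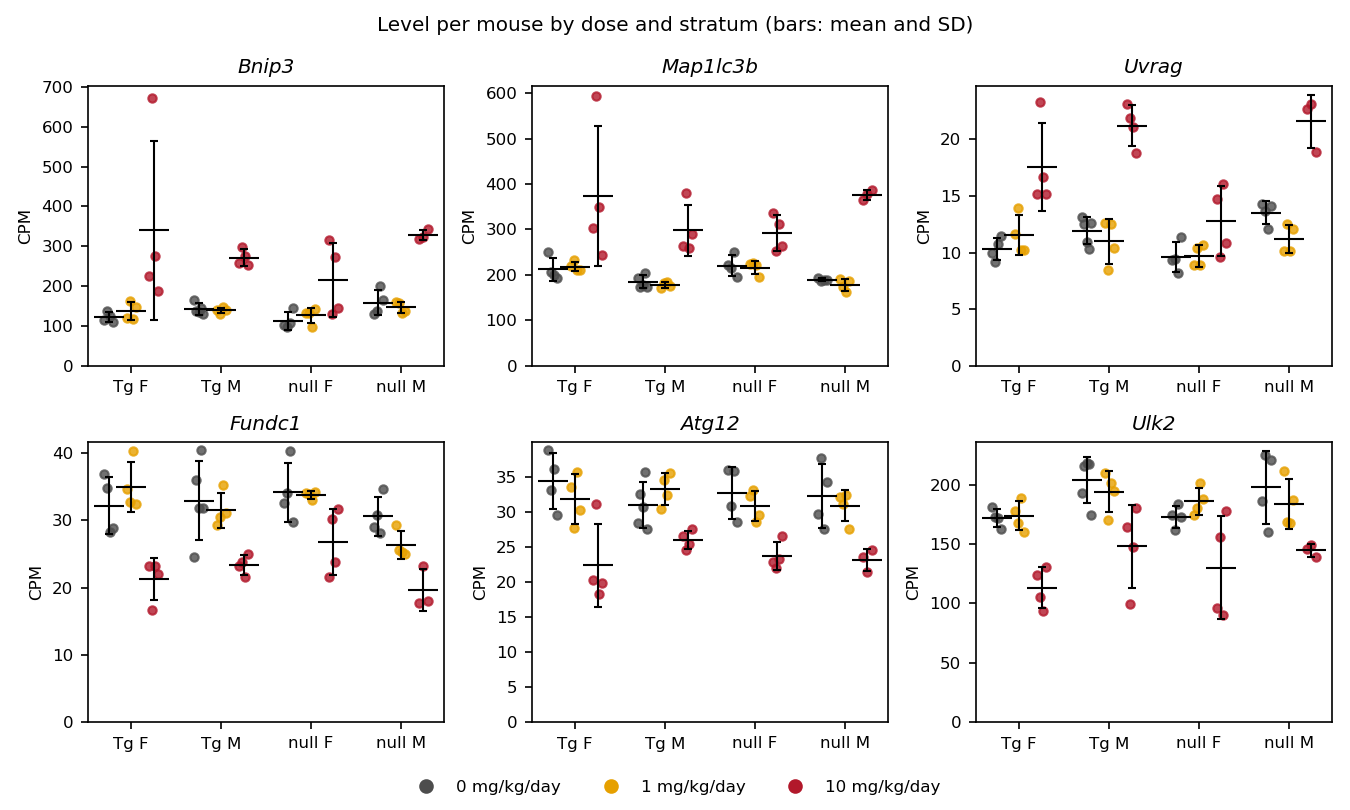
CPM per mouse (y axes) of 3 genes that rose and 3 that fell, for each stratum (x axes; Tg, hCYP2B6-Tg; null, Cyp2b-null; F, female; M, male) at 0, 1 and 10 mg/kg/day from left to right, with the mean and SD as bars. The mice at 1 mg/kg/day sit with those at 0, while at 10 mg/kg/day Bnip3 reaches 673 CPM in 1 hCYP2B6-Tg female and is lowest, at 130.6 CPM, in a Cyp2b-null female.

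The lower dose gave no called gene. At 1 against 0 mg/kg/day 0 of the 40 genes passed, averaged or within any stratum, where 0% of all genes passed on average and at most 0.0128% within a stratum (edgeR). DESeq2 called 0 of the 40 as well. Only Atg101 had an unadjusted p under 0.05 in the averaged comparison, and the log2 fold changes lay between -0.14 and 0.13. Set against 1 mg/kg/day, 10 mg/kg/day gave 20 genes higher and 9 lower, where 46.9% of all genes passed, 24.7% higher and 22.2% lower. The mice at 10 mg/kg/day are shared by both comparisons. Bnip3 was at 1.06 ± 0.12 against 1 mg/kg/day and 1.10 ± 0.12 against 0 mg/kg/day, Map1lc3b at 0.76 ± 0.07 and 0.73 ± 0.07, Uvrag at 0.72 ± 0.07 and 0.67 ± 0.07, Gabarap at 0.37 ± 0.05 and 0.37 ± 0.05, and Fundc1 at -0.48 ± 0.07 and -0.52 ± 0.06.

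The strata differed in how many genes passed. In hCYP2B6-Tg females 18 genes were higher and 6 lower, where 27.7% of all genes passed, 14.2% higher and 13.5% lower. Cyp2b-null females had 2 higher and 3 lower genes, where 12.7% of all genes passed, 5.83% higher and 6.87% lower. Among hCYP2B6-Tg males 5 were higher and 3 lower, where 18.5% of all genes passed, 7.92% higher and 10.6% lower. Cyp2b-null males had 12 higher and 4 lower genes, where 15.8% of all genes passed, 7.45% higher and 8.36% lower. These counts depend on the setting. On unscaled totals hCYP2B6-Tg males had 22 higher and 0 lower, Cyp2b-null females 17 and 0, and Cyp2b-null males 22 higher. On those totals 48.3% of all genes were higher and 10.5% lower, averaged over the strata. With only the groups compared in the fit, hCYP2B6-Tg females had 5 higher, hCYP2B6-Tg males 1 lower and Cyp2b-null females 0 higher. Shares of all genes within a stratum are not given for these settings or for the mice left out below. In hCYP2B6-Tg females the smallest p belonged to Bnip3, Map1lc3b (0.81 ± 0.15), Uvrag (0.76 ± 0.15), Atg12 (-0.62 ± 0.12) and Ambra1 (0.55 ± 0.11). In hCYP2B6-Tg males it belonged to Uvrag (0.83 ± 0.14), Gabarap (0.49 ± 0.09), Map1lc3b (0.69 ± 0.14), Bnip3 and Fundc1 (-0.49 ± 0.12). All 5 genes called in Cyp2b-null females were Gabarap (0.42 ± 0.09), Atg12 (-0.47 ± 0.12), Bnip3, Atg10 (-0.61 ± 0.18) and Wipi1 (-0.46 ± 0.15). In Cyp2b-null males Map1lc3b (0.99 ± 0.16), Fundc1 (-0.65 ± 0.14), Uvrag (0.67 ± 0.15), Gabarap (0.42 ± 0.10) and Bnip3 led. Without replicate 2 of the high-dose hCYP2B6-Tg females, 8 genes were higher in that stratum, and the lower calls in hCYP2B6-Tg males came to 1 without their replicate 2 at 10 mg/kg/day. In Cyp2b-null females the higher calls came to 1 without replicate 1 or 3 and to 4 without replicate 2 or 4 at 10 mg/kg/day. Their lower calls came to 1 without replicate 2 or 3 at 0 or replicate 3 at 10 mg/kg/day and to 5 without replicate 4 at 10 mg/kg/day, and those of Cyp2b-null males to 2 without replicate 3 at 10 mg/kg/day.

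A difference between strata in the size of the response was not called for any of the 40 genes. In the test of the 10 against 0 mg/kg/day response of females minus that of males, 0 genes passed, where 0.128% of all genes did (0.0706% higher and 0.0578% lower), and 0 had an unadjusted p under 0.05. In the same test of hCYP2B6-Tg minus Cyp2b-null, 0 passed (0% of all genes) and 5 had an unadjusted p under 0.05, with Gabarapl1 at 1.04 ± 0.38 and Atg4c at -0.42 ± 0.16 (edgeR adjusted p = 0.448 and 0.459). DESeq2 also called 0 in both tests. Without replicate 2 of the high-dose hCYP2B6-Tg females both tests again called 0 of the 40 genes (edgeR). For females minus males, Map1lc3b (-0.39 ± 0.11), Atg14 (-0.36 ± 0.11) and Calcoco1 (-0.32 ± 0.11) then had the smallest adjusted p (edgeR; 0.0736, 0.141 and 0.189). For hCYP2B6-Tg minus Cyp2b-null, Gabarapl1 was then at 0.49 ± 0.27 and Atg4c at -0.36 ± 0.15 (edgeR adjusted p = 0.638 and 0.545). No gene was called higher in 1 stratum and lower in another. Of the 20 genes higher on average, 13 were above 0 in all 4 strata, 6 in 3 and 1 in 2 (log2 fold change). Of the 10 lower, 9 were below 0 in all 4 strata, where 39.3% of all genes tested passed with 1 sign in all 4. Those were 6117 of the 7403 genes called, a larger share of called genes than among the 40. Whether these shares differ was not tested.

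Pooling the strata, none of the 40 genes separated the doses fully, and few of all genes did. Over all strata the 10 and 0 mg/kg/day ranges overlapped for each of the 40 genes, where 0.27% of all genes lay wholly higher and 0.738% wholly lower. Within strata the treated mice lay wholly above the untreated ones for 8 genes and wholly below for 5 in hCYP2B6-Tg females (10.4% and 12.8% of all genes) and for 4 and 5 in Cyp2b-null females (7.07% and 7.28%). The counts were 6 and 1 in hCYP2B6-Tg males (5.69% and 7.3% of all genes) and 19 and 5 in Cyp2b-null males (14.3% and 13.9%). The spread over all mice of a dose, with the strata pooled, was wider at 10 mg/kg/day. The median coefficient of variation of the 40 genes was 11.1% at 0, 10.9% at 1 and 18.1% at 10 mg/kg/day. These values include differences between strata as well as between mice of a group.

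**Figure D3:**
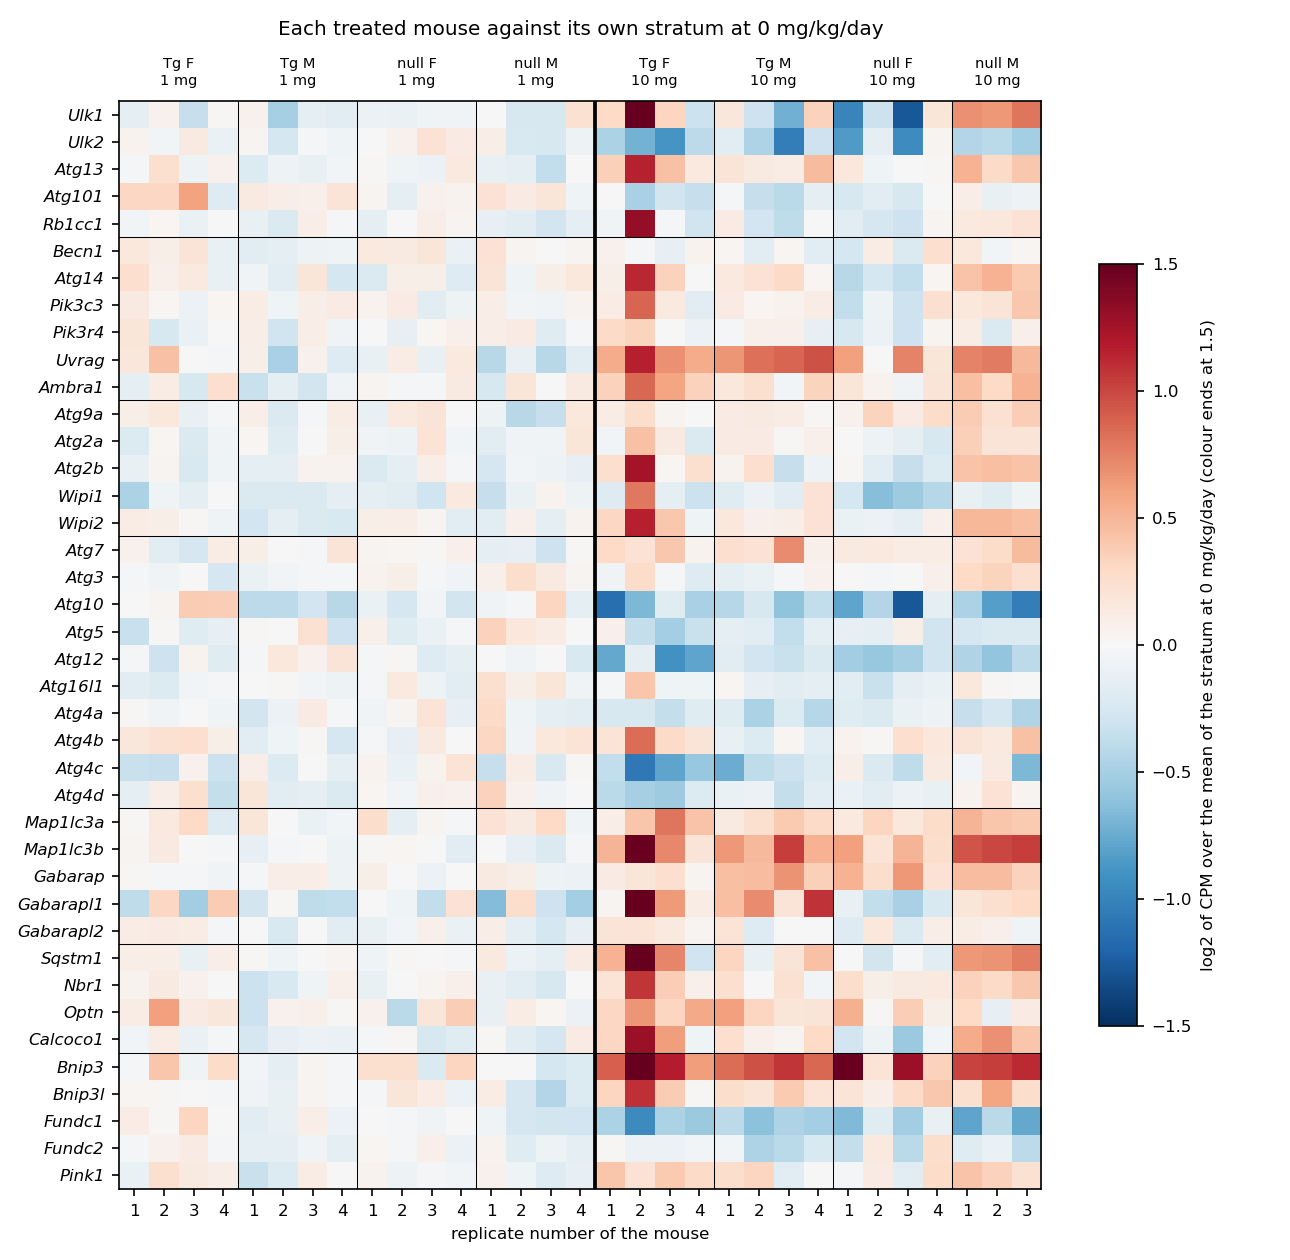
Log2 ratio of each treated mouse to the mean of its own stratum at 0 mg/kg/day (colour; the scale ends at 1.5 in both directions) for the 40 genes in rows, grouped by step, and the mice in columns by dose and stratum (Tg, hCYP2B6-Tg; null, Cyp2b-null; F, female; M, male; dose in mg/kg/day). The 16 mice at 1 mg/kg/day are pale throughout, Bnip3 is red and Fundc1 blue across most mice at 10 mg/kg/day, and replicate 2 of the high-dose hCYP2B6-Tg females holds the deepest red.

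A single mouse stood apart. Replicate 2 of the hCYP2B6-Tg females at 10 mg/kg/day had the highest level of the 15 mice at that dose for 23 of the 40 genes, and 15 of its genes lay beyond 1 on the log2 scale from the mean of untreated hCYP2B6-Tg females, against at most 3 in any other mouse at 1 or 10 mg/kg/day. Its log2 ratios were 2.77 for Gabarapl1, 2.47 for Bnip3 and 2.16 for Ulk1. Markers of other tissues were not high in it: Alb and Glycam1 had 0 counts, and the summed adipocyte markers were at 189 CPM. Its total of 16516841 counts and its scaling factor of 1.02 lay within the range of the dose, and mitochondrially encoded transcripts made up 6.43% of its counts. Without it, 17 genes were higher and 10 lower on average (24.2% and 22.4% of all genes), the median log2 fold change of the 40 genes was 0.09 and the median coefficient of variation at 10 mg/kg/day was 13.5%. Within its stratum 10 of the 18 higher calls were lost and 8 kept, and 5 of the 6 lower calls were kept. The share of all genes called in that stratum without this mouse is not given. Bnip3 was at 0.92 ± 0.19, Map1lc3b at 0.50 ± 0.11 and Ulk1 at 0.13 ± 0.21 in hCYP2B6-Tg females without it, and Atg12 at -0.82 ± 0.11.

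**Figure D4:**
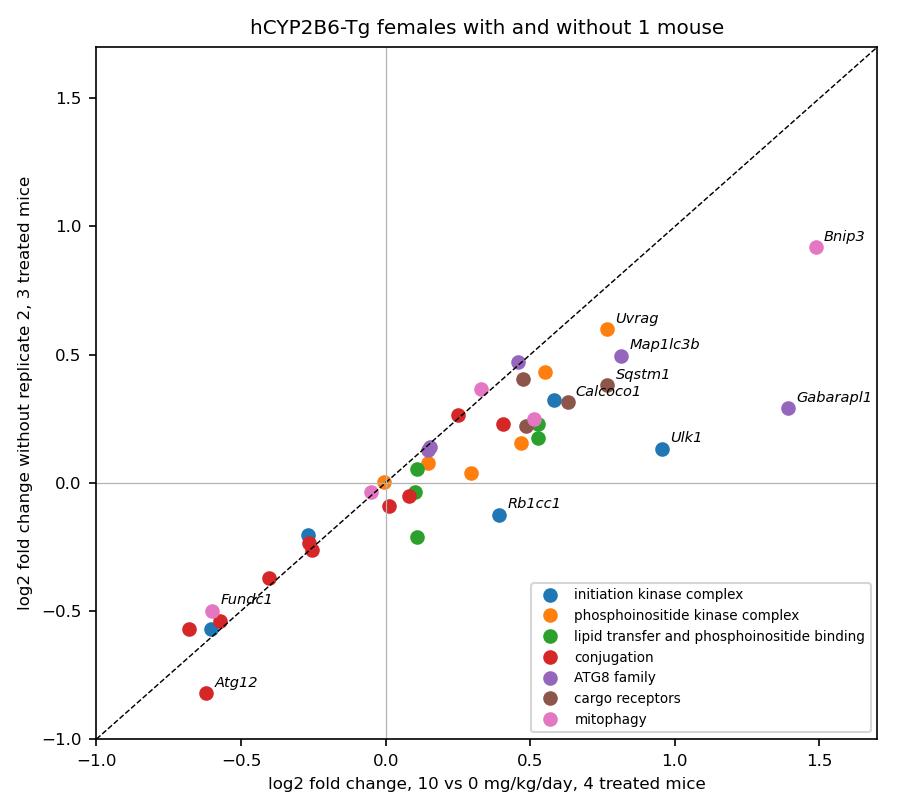
Log2 fold change of the 40 genes in hCYP2B6-Tg females at 10 against 0 mg/kg/day with all 4 treated mice (x axis) and without replicate 2 (y axis), coloured by step; the dashed line marks equal values. Most genes right of 0 lie below the line: Gabarapl1 is at 1.39 with and at 0.29 without the mouse, while Atg12 is at -0.62 with and at -0.82 without it.

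Before any PFOS the sexes differed in 4 of the 40 genes and the genotypes in 0. Females without PFOS, set against males without PFOS, were higher in Atg9a (0.30 ± 0.08; edgeR adjusted p = 0.0102) and lower in Optn (-0.50 ± 0.11; 0.00349), Atg4a (-0.32 ± 0.07; 0.00361) and Uvrag (-0.35 ± 0.10; 0.0269), where 7.59% of all genes passed, 2.86% higher and 4.73% lower. Optn averaged 60.2 ± 6.45 CPM in hCYP2B6-Tg females and 87.8 ± 13.5 CPM in hCYP2B6-Tg males, and 73.1 ± 20.5 CPM in Cyp2b-null females and 100.7 ± 14.1 CPM in Cyp2b-null males (SD). Atg9a averaged 126.99 ± 5.55 and 97.4 ± 16.1 CPM in females and males of hCYP2B6-Tg, and 120.9 ± 13.4 and 104.1 ± 10.5 CPM in females and males of Cyp2b-null. Without replicate 2 of the hCYP2B6-Tg females, hCYP2B6-Tg male replicate 5 or Cyp2b-null male replicate 1, all at 0 mg/kg/day, the genes higher in females numbered 2. In hCYP2B6-Tg set against Cyp2b-null mice without PFOS 0 of the 40 genes passed (0% of all genes; 2 at an unadjusted p under 0.05, and 0 with DESeq2).

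The 40 genes differed widely in abundance. Per kilobase of exon, Pink1 was the most abundant without PFOS at 372 CPM per kb, followed by Sqstm1 at 183.3, Map1lc3a at 101.2, Fundc2 at 91.8 and Bnip3 at 59.3. At the other end stood Uvrag at 1.26, Atg7 at 1.79 and Pik3r4 at 1.88 CPM per kb. At 10 mg/kg/day Pink1 stood at 430.3, Sqstm1 at 243, Map1lc3a at 127.8, Bnip3 at 126.6 and Uvrag at 2.002 CPM per kb. Whether the counting used strand is not given in the sources used here, and 13 of the 40 genes share exon bases with another gene. The counts of the whole overlapping gene came to 28.5% of those of Atg2b (Gskip), 15.2% of Map1lc3b (Zcchc14), 10.8% of Atg9a (Ankzf1) and 9.39% of Atg4d (Kri1). The bases shared with these genes were 2.85% of the exon bases of Atg2b, 0.772% of Map1lc3b, 0.798% of Atg9a and 19.3% of Atg4d. Each lay on the opposite strand. The largest share was 43.9%, in Becn1, with Cntd1 at 0.458% of its counts. Bnip3 shared 22.25% with Gm45507, which had 0 counts. A pseudogene, Bnip3l-ps, was counted at 7.56% of Bnip3l.

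The regulators upstream of these genes spanned log2 fold changes of -1.36 to 2.31, where the 40 genes spanned -0.59 to 1.10. Of 30 upstream regulators at 10 against 0 mg/kg/day, averaged over the strata, 13 were higher and 8 lower (47.5% of all genes passed, 25% higher and 22.5% lower). Trp53inp2, whose protein binds ATG8 and promotes autophagy in mouse muscle, averaged 171.5 ± 56.5 CPM at 10 mg/kg/day, against 429.8 ± 49.7 CPM at 0 mg/kg/day (SD), a log2 fold change of -1.36 ± 0.09 (edgeR adjusted p = 1.39e-14). Its paralogue Trp53inp1 went the other way, with 34.2 ± 21.9 CPM at 10 mg/kg/day, against 15.3 ± 3.42 CPM at 0 mg/kg/day, 1.11 ± 0.15 (edgeR adjusted p = 5.86e-08). Rragd and Lamtor1, of the lysosomal machinery that signals nutrients to mTORC1, were lower, at -0.59 ± 0.07 and -0.40 ± 0.05 (edgeR adjusted p = 1.71e-08 and 3e-09). The forkhead genes Foxo1 and Foxo3, named here after their values were seen, were higher at 1.45 ± 0.19 and 0.68 ± 0.12, and Tfeb, likewise, at 0.20 ± 0.06. None of these directions turned on unscaled totals.

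Of 21 further autophagosome genes, among them tethers and fusion proteins, 6 were higher and 6 lower, where 47.5% of all genes passed, 25% higher and 22.5% lower. Zfyve1, which marks the membrane sites where autophagosomes start, averaged 69.1 ± 45.5 CPM at 10 mg/kg/day, against 37.7 ± 4.96 CPM at 0 mg/kg/day, 0.80 ± 0.12 (edgeR adjusted p = 6.23e-07). The fusion proteins Vamp8 and Ykt6 were lower at -0.48 ± 0.08 and -0.27 ± 0.04, and Vps11, of the tethering complex at the lysosome, was higher at 0.25 ± 0.05; Ykt6 was at -0.05 and not called on unscaled totals. Of 24 further selective autophagy and mitophagy genes 10 were higher and 6 lower, beside the same 25% and 22.5% of all genes. Those with the smallest p were mostly mitochondrial and lower: Vdac1, a channel of the outer membrane and a Parkin substrate, averaged 1005 ± 174.1 CPM at 10 mg/kg/day, against 1498 ± 180.97 CPM at 0 mg/kg/day, -0.57 ± 0.07 (edgeR adjusted p = 5.49e-09), Nipsnap2, a mitochondrial marker for mitophagy, was at -0.43 ± 0.05, and Mfn2, the mitofusin that Parkin ubiquitinates, was at -0.35 ± 0.05. Sec62, a receptor for endoplasmic reticulum, was higher at 0.42 ± 0.06. At 1 against 0 mg/kg/day 0 genes of these 3 lists passed, with 1, 0 and 1 at an unadjusted p under 0.05.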

How the data were processed

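The authors deposited 1 table of whole-number counts per gene for 48 libraries, not normalized. The submitters' processing notes name HISAT2 and GRCm39; the sources used here give no versions, no read counter and no strand setting. The table's gene coordinates are those of GRCm38: 53585 of its 54532 genes, 39 of the 40 genes studied among them, have the same start and end as in GENCODE vM21. Per the labels' protocols, mRNA was purified from total RNA for library construction; each mouse is a library of its own.

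Counts were analysed with edgeR 4.0.16 in R 4.3.3: TMM scaling, its group-wise filter on low counts (15583 genes kept), 1 fit of the 12 groups, and the two-sided quasi-likelihood test for 15 contrasts (36 residual degrees of freedom; the biological CV was 23.5%). P-values were adjusted by Benjamini-Hochberg over the 15583 genes and called under 0.05. Averaged contrasts weight the 4 strata equally. Standard errors were taken from the fitted log2 fold change and its test statistic. CPM are counts scaled to 1e+06 per TMM-scaled library. Replicates are separate mice per the labels; over 73 replicate pairs, chi-square was at least 7.24 per degree of freedom, and none was treated as a copy. Total counts were 11571142 to 19921061, with a median of 14420691.

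The genes studied and the further lists were chosen with earlier results of these data known. Values per mouse are given for up to 3 genes of each step that passed at 10 against 0 mg/kg/day, by smallest p, for up to 5 genes in the other comparisons and up to 4 of each further list; genes outside this rule are named as such. Alternatives were DESeq2 1.42.0, its size factors, unscaled totals, no filter and a stricter one (1 CPM or more in 16 libraries or more), the groups compared alone, the replicate number as a block and each mouse left out. Added after seeing the data were a covariate of adipocyte markers and fits without 6 libraries with liver or lymph node transcripts, with and without replicate 2 of the high-dose hCYP2B6-Tg females. The fitting code was tested on simulated counts. Promoter sequences are those of RefSeq.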

Additional observations from a re-analysis of the deposited data

Results flagged for a closer look

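Calcoco1 was flagged because its treated and untreated ranges parted in opposite directions in the 2 sexes of Cyp2b-null mice. Cyp2b-null females had 112.3, 130.5, 93.3 and 133.9 CPM at 10 mg/kg/day, against 134.7, 144.7, 135.9 and 133.98 CPM at 0, a log2 fold change of -0.23, and Cyp2b-null males had 178.5, 194.4 and 160.8 CPM at 10 mg/kg/day, against 110.7, 122.6, 136.7 and 113.9 CPM at 0, a log2 fold change of 0.56. Each treated male lay above, and each treated female below, all untreated Cyp2b-null mice of the same sex. In females the margin was narrow, 133.9 against 133.98 CPM, and the decrease was not called. The difference between these 2 strata was not tested. How many of all genes part in this way was not counted.

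Among the genes given with values per mouse, 12 of 253 tests of a group of 4 or 5 mice found a mouse far from the others by Dixon's criterion, and over all 40 genes 29 of 440; chance flags about 1 in 20. Of the 29, 8 were in replicate 2 of the high-dose hCYP2B6-Tg females, which had 537.6 CPM of Ulk1, 71.8 CPM of Atg2b, 31.2 CPM of Atg12 and 284 CPM of Gabarapl1, each the highest of its group. At the same dose hCYP2B6-Tg male replicate 4 had 99.0 CPM of Atg9a. Without PFOS, Cyp2b-null male replicate 3 had 91.3 CPM of Gabarapl1 and hCYP2B6-Tg male replicate 5 had 31.3 CPM of Atg4a. At 1 mg/kg/day the single mice were Cyp2b-null female replicate 2 for Atg101 (23.1 CPM), Cyp2b-null female replicate 4 for Map1lc3b (196 CPM), hCYP2B6-Tg male replicate 3 for Atg10 (7.09 CPM), hCYP2B6-Tg female replicate 3 for Sqstm1 (524 CPM) and Cyp2b-null male replicate 1 for Fundc1 (29.4 CPM).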

How the results depend on the processing

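Of the 30 genes called at 10 against 0 mg/kg/day, 19 kept the call and direction under all 42 settings run, among them Ulk2, Atg10, Atg12, Fundc1 and 15 that rose, and DESeq2 gave the same call for all 40 genes in that comparison. What share of all called genes kept the call under every setting was not counted. Unscaled library totals changed most. On average 4 genes were then lower at 10 against 0 mg/kg/day, and 31 higher and 4 lower against 1 mg/kg/day. In hCYP2B6-Tg males 22 were then higher and 0 lower, in Cyp2b-null females 17 higher and 0 lower, and in Cyp2b-null males 22 higher. Averaged over the strata at 10 against 0 mg/kg/day, 48.3% of all genes were then higher and 10.5% lower. Log2 fold changes turned to 0.050 for Atg101, 0.21 for Becn1, 0.022 for Atg5, 0.18 for Atg16l1, 0.078 for Atg4d and 0.062 for Fundc2. With the adipocyte covariate 6 genes were lower on average, and 0 in both hCYP2B6-Tg males and Cyp2b-null females. Without the 6 libraries 1 gene was lower in hCYP2B6-Tg males and Cyp2b-null females each, and 1 higher in Cyp2b-null females; without these and replicate 2 of the high-dose hCYP2B6-Tg females, 5 genes were higher in hCYP2B6-Tg females and 2 in females over males without PFOS. With only the groups compared in the fit, 5 genes were higher in hCYP2B6-Tg females, 1 lower in hCYP2B6-Tg males and 0 higher in Cyp2b-null females, while 2 were higher and 5 lower in females over males without PFOS. In Cyp2b-null females the stricter filter gave 4 higher and no filter 1 lower. The cause was not tested, and shares of all genes within a stratum are not given for these settings. Leaving out 1 mouse at a time gave 17 to 22 genes higher and 8 to 10 lower on average against 0 mg/kg/day, and 18 to 22 and 8 to 10 against 1 mg/kg/day. By stratum it gave 8 to 20 higher in hCYP2B6-Tg females, 1 to 4 lower in hCYP2B6-Tg males, 1 to 4 higher and 1 to 5 lower in Cyp2b-null females, 2 to 5 lower in Cyp2b-null males, and 1 to 2 higher and 2 to 3 lower in females over males without PFOS.

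Same-numbered mice did not deviate together on the whole (46 pairs, median r = -0.005, range -0.30 to 0.21). Pairs with different numbers ranged more widely, from -0.40 to 0.49, so the check cannot exclude a pairing. The main fit used none. With the replicate block 19 genes were higher and 10 lower on average, Atg2b losing its call (edgeR adjusted p = 0.0560), and 2 were higher in females over males without PFOS. With 3 to 5 mice a group, a gene not called within a stratum is not shown to be unchanged.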
